A study of Mus musculus with 7 samples.

Results

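The miR-29 family was followed through normal mouse neocortex and astrocytoma. Its members were taken by name, as the probes mmu-miR-29a, mmu-miR-29b and mmu-miR-29c together with any probe for the other strand of the same precursors. This gave 3 probes of the 566 mouse miRNA probes in the table. No row named for the other strand was among the values analysed here. Total RNA from flash-frozen tissue had been hybridized to the NanoString nCounter mouse miRNA panel, version 1.3, which counts color-coded probes without amplification. The 3 neocortex samples held layers II to IV of the cortex, dissected at postnatal day 60 from wild-type animals of the CD1 strain. For the 4 tumor samples, the mice were of the same strain and carried the hGFAP-HaV12-Ras transgene, an activated Ras oncogene under the human GFAP promoter, at postnatal days 65 (tumor 1), 104 (tumor 2), 125 (tumor 3) and 134 (tumor 4). The GFAP promoter is active in astrocytes and in neural progenitor cells, so the oncogene is not limited to 1 mature cell type. In each group sample 2 was female and the rest were male. Where in the brain the tumors lay is not given in the sources used here, and tumor, tissue region and age above day 60 cannot be told apart.

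MicroRNAs guide silencing complexes to messenger RNAs that pair with their seed, the bases 2 to 8 counted from the 5′ end. The miR-29 miRNAs repress collagens and other extracellular matrix genes, the de novo DNA methyltransferases and the survival factor Mcl1. In the mouse brain they rise as the cortex matures, are abundant in mature astrocytes and in mature neurons, and in neurons repress proapoptotic BH3-only genes. In human gliomas they have been described as lowered.

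The 3 main strands are shown because they share 1 seed, in capitals, and differ in few other bases (RefSeq, GRCm38.p6).
mmu-miR-29a: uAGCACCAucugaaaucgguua
mmu-miR-29b: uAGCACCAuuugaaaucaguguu
mmu-miR-29c: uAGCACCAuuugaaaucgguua
RefSeq names these strands miR-29a-3p, miR-29b-3p and miR-29c-3p, and all 3 probes were matched to them by the older name without an arm. Counted from the 5′ end, miR-29a and miR-29c differ only by C10U. miR-29b also carries U at that place, and set against miR-29c it has G18A, U21G and A22U and is 1 base longer. In human cells, uracils at positions 9 to 11 have been linked to faster decay of miR-29b and miR-29c, and the last 6 bases of miR-29b, AGUGUU, to its import into the nucleus. Of 1679 mature mouse miRNAs in the RefSeq table, these 3 alone have that seed.

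The family is encoded in a pair of clusters. Mir29a and Mir29b-1 lie on the minus strand of chromosome 6, chr6:31062660-31063093 (GRCm38.p6), with 275 bases between the hairpins and no other gene of the RefSeq table overlapping them. Mir29b-2 and Mir29c lie on the plus strand of chromosome 1, chr1:195037040-195037634, 426 bases apart and within the long noncoding RNA gene A330023F24Rik. The hairpins of Mir29b-1 and Mir29b-2 are shown because both hold the same mature miR-29b, in capitals, within different flanks.
Mir29b-1: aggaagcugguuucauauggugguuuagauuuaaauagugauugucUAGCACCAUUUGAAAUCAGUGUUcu
Mir29b-2: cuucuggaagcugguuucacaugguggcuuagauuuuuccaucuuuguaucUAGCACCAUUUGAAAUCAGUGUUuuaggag
Mature miR-29b therefore comes from both clusters, miR-29a from the chromosome 6 cluster and miR-29c from the chromosome 1 cluster. The comparison of the clusters takes each probe to count only the miRNA it is named for, which was not tested. Mature miRNAs alone were counted, so the output of a cluster and the decay of its miRNAs cannot be told apart.

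Values are the log2 values as deposited. Summed on the linear scale, all miRNAs came to 108755 to 113004 in every sample, so the deposited values were close to a scaling on the miRNA total. Whole counts could be recovered from them, with 23578 to 60759 miRNA counts per neocortex sample and 117636 to 208128 per tumor. With fewer counts, the neocortex samples had higher cutoffs, 4.65 to 5.21 on the log2 scale against 3.09 to 3.78 in the tumors, and values under a sample's cutoff were listed at 0. The family was counted well above each sample's cutoff everywhere. For miR-29a these were 625 to 1296 counts in the neocortex samples and 4330 to 6494 in the tumors, for miR-29b 1242 to 2257 and 9397 to 14816, and for miR-29c 467 to 969 and 1507 to 3385. Counting error on the log2 scale was largest for miR-29c in neocortex 3, at 0.067, which is smaller than the spread between samples.

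miR-29a and miR-29b lay higher in every tumor than in any neocortex sample, and miR-29c did not. The first 2 averaged 1.58-fold and 1.62-fold of neocortex and neither passed the test over all miRNAs. These directions hold on the scaling of the deposited values. On the housekeeping mRNA probes miR-29a and miR-29b lay at -0.30 and -0.26, and on the positive-control probes miR-29c lay above 0, at 1.44.

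miR-29a, of the chromosome 6 cluster, had log2 values of 11.18, 11.43 and 11.50 in neocortex 1 to 3. Its values in tumor 1 to 4 were 12.49, 12.03, 11.86 and 11.75. The groups did not overlap, and tumor 1 stood highest. The step of 0.25 from the highest neocortex sample to the lowest tumor was smaller than the SD of the tumors, 0.33. Group means were 11.37 ± 0.17 (SD, n = 3) and 12.03 ± 0.33 (SD, n = 4). The change of 0.66 (SE 0.23, 95% interval 0.11 to 1.22) had an adjusted p of 0.103 in limma with Benjamini-Hochberg adjustment over 283 miRNAs.

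miR-29b, made from both clusters, had log2 values of 11.98, 12.39 and 12.49 in neocortex 1 to 3. In tumor 1 to 4 it had 13.14, 12.77, 13.08 and 12.94. Neocortex 1 was lowest and tumor 1 again highest, with no overlap between groups. Group means were 12.29 ± 0.27 (SD, n = 3) and 12.98 ± 0.16 (SD, n = 4). The change was 0.70 (SE 0.20, 95% interval 0.22 to 1.17), with an adjusted p of 0.0599 in limma (Benjamini-Hochberg). It passed the test in 8 of 23 alternative settings and miR-29a in 4, among them values raised to the highest cutoff, where the adjusted p in limma was 0.0235 for miR-29b and 0.0462 for miR-29a.

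miR-29c, of the chromosome 1 cluster, had log2 values of 10.76, 11.01 and 11.08 in neocortex 1 to 3. In tumor 1 to 4 it had 10.50, 10.72, 10.69 and 10.81. The groups overlapped, since tumor 4 stood above neocortex 1, and tumor 1, highest for miR-29a and miR-29b, was lowest here. Group means were 10.95 ± 0.17 (SD, n = 3) and 10.68 ± 0.13 (SD, n = 4). The change of -0.27 (SE 0.17, 95% interval -0.68 to 0.14) had an adjusted p of 0.302 in limma (Benjamini-Hochberg), so an increase beyond 1.10-fold lay outside the interval.

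**Figure D1:**
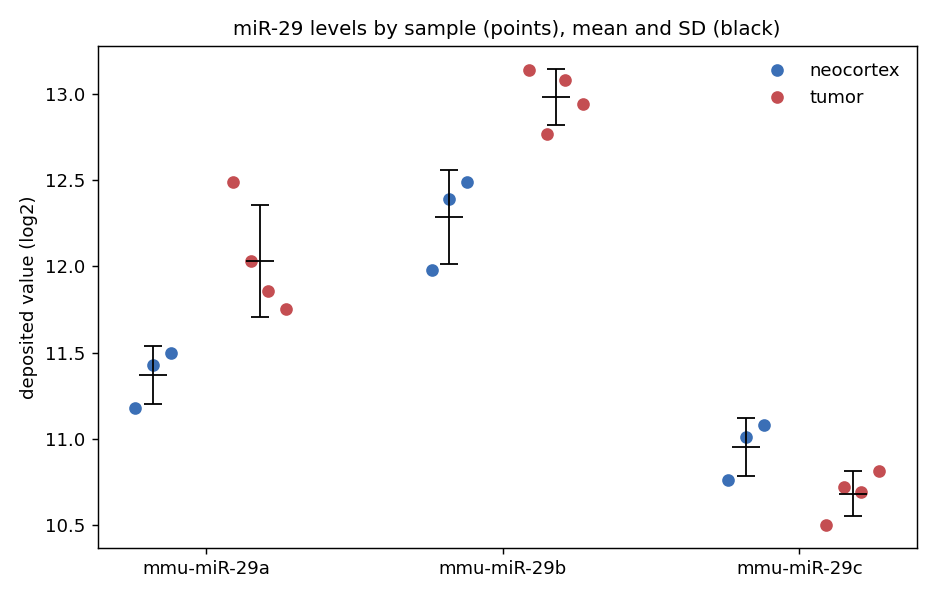
Deposited log2 values of the 3 miR-29 probes, 1 point per sample (neocortex blue, n = 3; tumor red, n = 4), with mean and SD in black. The tumor points lie above the neocortex points for mmu-miR-29a and mmu-miR-29b, while those of mmu-miR-29c overlap around 10.76 to 10.81; on the housekeeping probes the mean changes of the first 2 fall below 0.

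Set against all miRNAs, 0 of the 3 members were called in limma, where 8.13% of the 283 tested were called higher and 9.54% lower at an adjusted p under 0.05. At an unadjusted p under 0.05 in limma, 41 miRNAs were higher and 51 lower, and miR-29a and miR-29b were among the higher ones. Of the 197 miRNAs above the cutoff in all 7 samples, 13.2% had every tumor above every neocortex sample, as miR-29a and miR-29b did. Among these 197 the changes of miR-29b and miR-29a ranked 22 and 23 from the highest, and miR-29c ranked 95. Their median change was -0.29, so miR-29c, at -0.27, lay at the middle of this set. The median over all 283 tested was 0.03, and that of the 30 most abundant miRNAs was -0.09, with 13 of the 30 above 0.

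**Figure D2:**
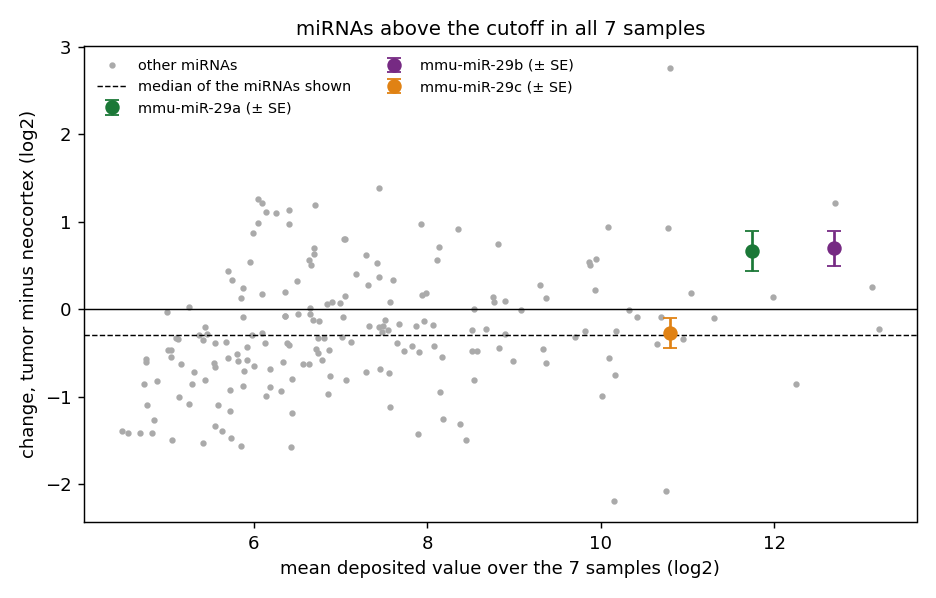
Change between groups (tumor minus neocortex, log2) against mean deposited value (log2) for the 197 miRNAs above the cutoff in all 7 samples, with the 3 miR-29 probes in color with their SE. mmu-miR-29a and mmu-miR-29b lie at 0.66 and 0.70, and mmu-miR-29c at -0.27, near the dashed median of -0.29.

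Shares of all recovered miRNA counts restate these values as amounts and are no separate evidence, since the deposited values were already close to a scaling on the miRNA total. The share of miR-29a was 2.44 ± 0.27% of the counts over the neocortex samples (SD, n = 3) and 3.84 ± 0.88% over the tumors (SD, n = 4). miR-29b took 4.64 ± 0.82% and 7.31 ± 0.78%. miR-29c took 1.82 ± 0.20% and 1.48 ± 0.14%. All 3 probes together made up 7.44%, 9.35% and 9.90% of the counts in neocortex 1 to 3 and 14.4%, 11.6%, 12.7% and 11.9% in tumor 1 to 4. In neocortex 3, the sample with the fewest counts, the share of miR-29a was 2.65% with a 95% Wilson interval of 2.45% to 2.86%, which covers counting error only. Shares add to a fixed whole, so they give no amount per cell. In these tissue samples fewer cells of a type and less RNA per cell cannot be told apart.

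The comparison of the clusters rests on the difference between miR-29a and miR-29c within each sample, which does not depend on how the sample was scaled. That difference was larger in every tumor than in any neocortex sample. It was 0.42 on the log2 scale in each of the 3 neocortex samples. In tumor 1 to 4 it was 1.99, 1.31, 1.17 and 0.94. Tumor 1 stood farthest from neocortex and tumor 4 nearest. The 3 neocortex values were equal to 2 decimals, although their counting error was 0.061 to 0.088 per sample. The tumor mean was 0.93 higher (SE 0.27, a 1.91-fold change of the miR-29a to miR-29c ratio), with a 2-sided exact permutation p of 0.0571 and 0.0857 after Benjamini-Hochberg adjustment over the 3 pairs of probes, so the change did not pass the test. Its 95% interval, 0.25 to 1.62, assumes an equal spread in both groups, which the values do not show.

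The difference between miR-29b and miR-29c changed by a similar amount. It was 1.22, 1.38 and 1.41 in neocortex 1 to 3 and 2.64, 2.05, 2.39 and 2.13 in tumor 1 to 4, again without overlap. The mean changed by 0.97 (SE 0.17, 95% interval 0.54 to 1.39), with a 2-sided exact permutation p of 0.0286, the smallest that 3 against 4 samples allow, and an adjusted p of 0.0857. miR-29a minus miR-29b was -0.80, -0.96 and -0.99 in neocortex and -0.65, -0.74, -1.22 and -1.19 in tumor. Tumors 1 and 2 lay above all neocortex samples for this pair and tumors 3 and 4 below them. The mean differed by -0.03 (95% interval -0.50 to 0.44, 2-sided exact permutation p = 0.857), which leaves room for a difference of up to 0.50 in size.

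**Figure D3:**
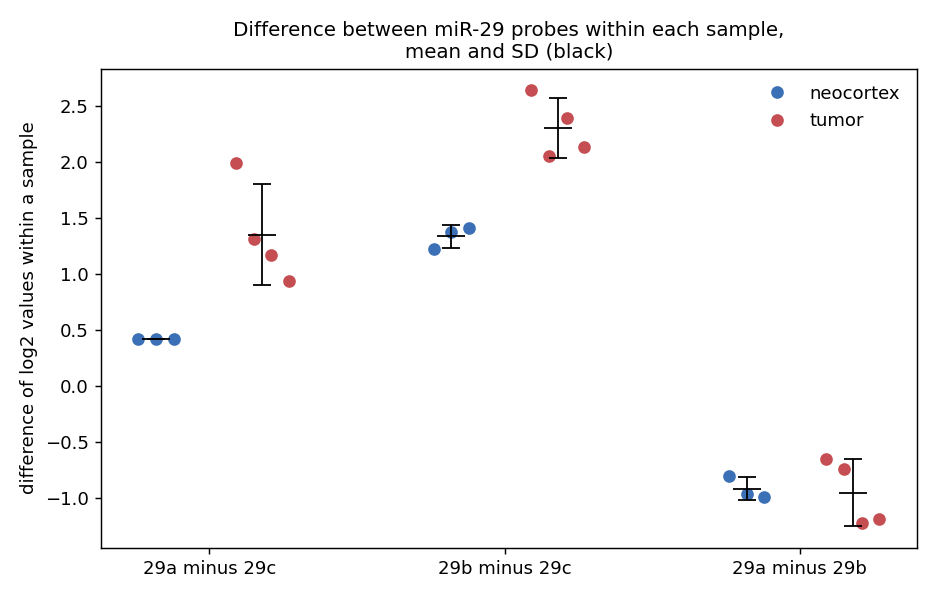
Difference of log2 values between 2 miR-29 probes within each sample (neocortex blue, n = 3; tumor red, n = 4), with mean and SD in black. miR-29a and miR-29b stand farther above miR-29c in all 4 tumors than in any neocortex sample, while the difference between miR-29a and miR-29b overlaps.

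Such a split between 2 miRNAs was common in this comparison. Among all pairs of the 197 miRNAs, 36% had differences that did not overlap between groups, and for 35% the difference changed by at least as much as that of miR-29a and miR-29c. The split between miR-29a and miR-29c is therefore within what many pairs of miRNAs showed. With miR-29b read from both clusters, its higher level in tumor cannot be divided between Mir29b-1 and Mir29b-2.

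Within the tumors, miR-29a was lower in each older mouse. Its values were 12.49 at day 65, 12.03 at day 104, 11.86 at day 125 and 11.75 at day 134. The difference between miR-29a and miR-29c followed the same order, from 1.99 to 0.94. A steady fall over the 4 tumors was seen in 7.61% of the 197 miRNAs. miR-29b and miR-29c followed no steady order, although miR-29c was lowest at day 65 and highest at day 134. With 4 tumors and 1 sample per age no relation to age was tested. The day 65 tumor, closest in age to the day 60 neocortex, was the one that differed most from it in all 3 members.

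**Figure D4:**
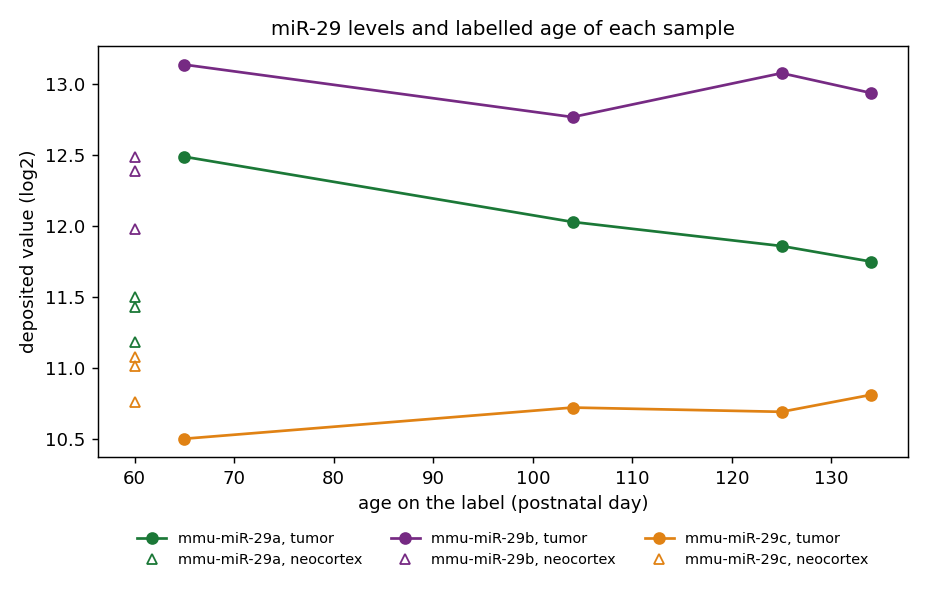
Deposited log2 values of the 3 miR-29 probes against the age on the label in postnatal days (filled points joined by lines, 4 tumors; open triangles, 3 neocortex samples at day 60). mmu-miR-29a falls from 12.49 at day 65 to 11.75 at day 134, and mmu-miR-29c stays between 10.50 and 10.81.

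The 3 members did not share 1 profile over the 7 samples. Pearson's r was 0.87 between miR-29a and miR-29b, -0.72 between miR-29a and miR-29c and -0.55 between miR-29b and miR-29c. The mean of the 3 therefore mostly followed miR-29a and miR-29b. The miRNA most like that mean was miR-148a, which targets DNA methyltransferases, with r = 0.926, the highest among 194 miRNAs, and 0.912 after group means were subtracted. Taken singly, miR-148a had r = 0.93 with miR-29a, 0.83 with miR-29b and -0.47 with miR-29c. These values are descriptions over 7 samples that share their scaling. miR-148a had log2 values of 6.91, 7.26 and 7.30 in neocortex 1 to 3 and 7.68, 7.45, 7.41 and 7.22 in tumor 1 to 4, with overlap between groups. It differed by 0.28 (SE 0.19), with an adjusted p of 0.330 in limma (Benjamini-Hochberg). Next over the 7 samples were the shared probe of miR-20a and miR-20b (r = 0.905), miR-221 (0.861), miR-125a-5p (0.856) and miR-19b (0.851). With group means subtracted, miR-199a-3p (0.951) and miR-376a (0.939) came first.

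Of 8 tested miRNAs described as enriched in astrocytes, other than miR-29, 0 were called higher and 1 lower in limma (12.5%, beside 9.54% lower over all tested miRNAs). Before adjustment these counts were 0 and 2 at p under 0.05. The called share was thus near that of all miRNAs. The median change was 0.15 beside 0.03 for all tested miRNAs. Over the 6 that were counted in every sample it was 0.11, beside -0.29 for all 197 such miRNAs. The lower one was miR-23b, with values of 8.92 to 9.35 in neocortex and 7.50 to 8.17 in tumor and a difference of -1.31 (SE 0.22) at an adjusted p of 0.0120 in limma (Benjamini-Hochberg). Its paralog miR-23a differed by 0.13.

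The other 3 lists cover miRNAs that share a regulator or targets with miR-29. Over 13 tested miRNAs that Myc represses, as it does miR-29, the median change was -0.08. Over the 12 that were counted in every sample it was -0.09, beside -0.29 for all 197 such miRNAs. Of the 13, 3 were called higher and 0 lower (23.1% and 0%, beside 8.13% and 9.54% over all tested miRNAs). They were miR-22, at 10.22 to 10.27 in neocortex and 11.03 to 11.31 in tumor, the p53 target miR-34a, at 5.14 to 5.91 and 6.28 to 7.10, and miR-146a, induced by inflammatory signals, which was listed at 0 in all neocortex samples and at 5.26 to 5.91 in tumor, against the neocortex cutoffs of 4.65 to 5.21. miR-34a had an adjusted p of up to 0.116 in limma in fits without any 1 sample other than neocortex 3. With values raised to the highest cutoff miR-146a lost its call (adjusted p of 0.0856 in limma). Of the 12 that were counted in every sample, which leave out miR-146a, 2 were called higher in limma. Of 5 tested miRNAs that target DNA methyltransferases 0 were called in either direction in limma and 0 before adjustment at p under 0.05, and their median was 0.28, or 0.04 over the 4 that were counted in every sample. Of 6 tested miRNAs linked to fibrosis and extracellular matrix 1 was called higher (16.7%) and 0 lower. Of the 6, 3 were at 0 in some neocortex samples, where the cutoffs were higher than in tumor, and the 3 that were counted in every sample had a median of -0.29, as did all 197 such miRNAs. The called one was miR-21, which promotes fibrosis where miR-29 restrains it, at 8.98 to 9.59 in neocortex and 11.40 to 12.20 in tumor.

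Markers of other cell types moved between the groups as well, and their part in the values of miR-29 was not tested. All 3 oligodendrocyte miRNAs, of which miR-338-3p and miR-338-5p are by name strands of the same precursor, fell on the deposited scaling. In limma all 3 were called lower (100%, beside 9.54% over all tested miRNAs). On the positive-control probes none of them was called in limma, with miR-219 at -0.475, miR-338-3p at -0.369 and miR-338-5p at 0.32. The adjusted p of miR-338-5p in limma reached 0.0772 without tumor 2, and lay above 0.05 without neocortex 2, neocortex 3 or tumor 4 as well. The summed linear level of the 3 was 5985 to 7702 in neocortex and 1004 to 2323 in tumor. None of the 3 was at 0 in a whole group. The 2 endothelial miRNAs summed to 711 to 940 in neocortex and 1282 to 2388 in tumor, with 0 of 2 called in limma (1 at an unadjusted p under 0.05). Of 6 tested miRNAs of microglia and leukocytes 2 were called higher and 0 lower (33.3% and 0%, beside 8.13% and 9.54% over all tested miRNAs). They were miR-146a, given above, and miR-142-3p, at 4.93, 0 and 0 in neocortex 1 to 3 and 6.18 to 7.33 in tumor. miR-142-3p lost its call in limma without any 1 sample other than neocortex 1 (adjusted p of up to 0.113). The 4 that were counted in every sample had a median of -0.16, beside -0.29 for all 197 such miRNAs, with 0 called in limma. miR-142-5p was at 0 in all 7 samples, and the list summed to 717 to 923 in neocortex and 688 to 1239 in tumor.

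Most neuronal miRNAs lay lower in tumor on the deposited scaling, and 1 was called higher. Of the 9, all tested, 7 had changes below 0 and the median was -0.28, beside 0.03 for all 283 tested miRNAs. Over the 8 that were counted in every sample the median was -0.38, beside -0.29 for all 197 such miRNAs. In limma 0 were called lower and 1 higher (11.1%, beside 8.13% over all tested miRNAs). The called one was miR-9, which neural progenitor cells also express, at 11.93 to 12.06 in neocortex and 13.02 to 13.56 in tumor. It lost its call on the housekeeping probes, at 0.26, and with replicate number as a block (adjusted p of 0.133 in limma). miR-124, which marks neurons, was at 12.21 to 13.07 and 11.74 to 12.00, without overlap, and differed by -0.85 (SE 0.25) at an adjusted p of 0.0599 in limma (Benjamini-Hochberg). Without neocortex 1 miR-124 was called lower at -1.12 (adjusted p of 0.00681 in limma), and on the positive-control probes it lay at 0.86. The list, miR-9 included, summed to 12777 to 19791 in neocortex and 15820 to 19791 in tumor.

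The choroid plexus miRNAs did not all set the same neocortex sample apart. miR-204, abundant in that tissue, was at 12.65 in neocortex 1 against 9.10 and 9.64 in neocortex 2 and 3, and at 9.72 to 10.84 in tumor. For miR-34c and miR-34b-5p, neocortex 2 stood apart as the lowest. They were at 9.68, 5.26 and 9.07 and at 6.99, 0 and 6.67 in neocortex 1 to 3. miR-449a was at 0 in neocortex 1 and 2 and at 5.21 in neocortex 3. The list of 5 summed to 587 to 7375 in neocortex and 1015 to 2082 in tumor, with 0 of 4 tested called in limma or at an unadjusted p under 0.05, and miR-211 at 0 in all neocortex samples. Neocortex 1 was the lowest sample for miR-29a and miR-29b. Without it their changes were 0.57 and 0.54 (adjusted p of 0.144 and 0.0686 in limma), that of miR-29c was -0.37, and the change of miR-29a minus miR-29c was 0.93, as with it. All 3 red blood cell miRNAs had changes above 0, with a median of 0.71. For miR-486 the change above 0 rested on the 0 in neocortex 3, where the cutoff was 5.21. It was at 5.36 and 5.14 in neocortex 1 and 2 and at 4.85 to 5.07 in tumor. The 2 that were counted in every sample also had a median of 0.71, beside -0.29 for all 197 such miRNAs. The list summed to 268 to 366 in neocortex and 396 to 675 in tumor, with 0 called in limma or at an unadjusted p under 0.05. The 2 mural cell miRNAs summed to 491 to 639 and 351 to 858, likewise with 0 called by either measure. No astrocyte messenger RNA was among the probes, so the astrocyte label of the family and of the tumor could not be checked against Gfap or other defining transcripts.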

How the data were processed

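Per the labels and design text, total RNA of 3 neocortex and 4 tumor samples was measured with the nCounter mouse miRNA assay. The authors deposited log2 values with 2 decimals. How they scaled them and which software they used is not given in the sources used here. After removing the log, low values were multiples of a fixed step in each sample (100% of 151 to 264 values up to 60 counts, within 0.02 counts plus rounding), which gave the recovered counts. Values under a cutoff of 3.09 to 5.21 were listed at 0.

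Tumor and neocortex were compared with limma 3.58.1 in R 4.3.3 (2-sided, no covariate) over the 283 of 566 miRNA probes whose mean was at least the median of 2.80, with Benjamini-Hochberg adjustment, and differences between probes with exact permutation tests over 35 arrangements. The code was tested on simulated data. The members and lists were chosen with earlier results of these data known, and the lists come from general knowledge. Named miRNAs are the members, called members of the lists and those most like the members by Pearson's r. miR-23a, miR-124, miR-204 and miR-34c are each among the 2 most abundant of their list. miR-142-5p and miR-211 are named as markers at 0, and miR-34b-5p, miR-449a and miR-486 for their values at 0 in some neocortex samples. Replicate numbers come from the sample titles. By the ages on the labels the 4 tumors came from different mice, and by sex neocortex 2 from another mouse than neocortex 1 and 3, while for these 2 the labels do not say, so the neocortex spread may be partly technical. Same-numbered samples were not paired, since their deviations from the group means were at most weakly related (r = -0.18, 0.25 and 0.13 for numbers 1 to 3). By these deviations neocortex 1 was most like tumor 4, neocortex 2 most like tumor 2 and neocortex 3 most like tumor 3. A replicate block was therefore kept as an alternative.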

Additional observations from a re-analysis of the deposited data

How the results depend on the processing

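The within-sample differences of miR-29a and of miR-29b to miR-29c cannot move when a sample is rescaled or low values are raised, as in 5 alternatives. In the other 14 they lay at 0.65 to 1.07 and 0.70 to 1.07, and passed the test in none. With 1 sample left out, with males only or with the block, the permutation test cannot reach 0.05. With sex as a covariate its p cannot fall under 0.05. Not passing in these settings therefore says nothing about stability. miR-29a minus miR-29b turned to 0.047 with the replicate block and ranged from -0.13 to 0.057 with 1 sample left out.

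miR-29b passed the test in limma in 8 of 23 alternatives and miR-29a in 4 (Benjamini-Hochberg). For miR-29a these were median scaling (0.77), the positive-control probes (2.38), values raised to the highest cutoff of 5.21 (0.66) and the trend and robust fit (0.66). For miR-29b they were the same 4 (0.80, 2.41, 0.70 and 0.70), a restriction to miRNAs above every cutoff, no filter and a stricter filter on the mean (each 0.70), and a pseudocount of 30 (0.69). On the housekeeping probes (median of all tested miRNAs -0.93) miR-29a and miR-29b turned to -0.30 and -0.26 and miR-29c was called lower at -1.23. On the positive-control probes (median 1.74) miR-29c turned to 1.44, called higher. Relative to those medians the 3 members lay at 0.63, 0.66 and -0.30 under each, as on the deposited values. Scaling a sample shifts its counted miRNAs alike, so this follows from arithmetic and is no separate evidence. Quantile scaling gave 0.46, 0.50 and -0.20. With 1 sample left out miR-29a ranged from 0.51 (without tumor 1) to 0.76, miR-29b from 0.54 (without neocortex 1) to 0.80 and miR-29c from -0.37 to -0.21, with adjusted p from 0.0686 to 0.496. With the replicate block they lay at 0.76, 0.71 and -0.31, none past the test.

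Counts of higher and lower calls in limma were 228 and 0 on the positive-control probes and 10 and 135 on the housekeeping probes. The block gave 5 and 0, no filter 67 higher, miRNAs above the cutoff in all samples 41 lower, sex as a covariate 15 higher and males only 6 lower. Leaving out 1 sample gave 13 to 32 higher and 10 to 41 lower. miR-23b, miR-338-5p and miR-124 turned to 0.40, 0.32 and 0.86 on the positive-control probes, and miR-22, miR-23a and miR-148a to -0.028, -0.83 and -0.68 on the housekeeping probes. miR-23b lost its call with quantile scaling (adjusted p = 0.0526) and the block (0.118), under which miR-21, miR-22, miR-34a and all 3 oligodendrocyte miRNAs also did not pass. The causes were not tested.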
